A study of Mus musculus with 9 samples.

Results

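Mapre1 and 7 other genes of growing microtubule ends (Mapre2, Mapre3, Clip1, Clasp1, Clasp2, Ckap5 and Dctn1) are described here, 8 of the 19938 genes measured. Each was represented by its brightest probe set carrying 1 gene symbol, and 0 of the 8 had a choice between probe sets. Mapre1 was selected on its measured log2 change, a fall with 1 hairpin and not with the other, so its values are given as a description, without a test. The remaining 7 were chosen for their function, with results of these arrays already known.

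RNA of R1E cells, a line of mouse embryonic stem cells, was hybridised to Affymetrix arrays. The cells grew in serum (15%) with leukemia inhibitory factor (1000 units/ml), which keeps them undifferentiated. The sample titles name no drug. The cells had been transduced with a lentiviral short hairpin RNA: shApela_2 or shApela_1, both directed at Apela, or shLuc, directed at luciferase. Apela encodes a small secreted ligand of the apelin receptor. Each group had 3 arrays, so all 3 groups share the lentiviral vector and the culture, and the same shLuc arrays serve both hairpins. The labels do not say whether repeats were separate cultures or transductions, and p-values therefore reflect the spread of these arrays alone, which may be technical. No source used here gives the hairpin sequences, the time from transduction to RNA or the share of transduced cells.

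Microtubules are hollow polymers of alpha and beta tubulin that grow and shrink mainly at their plus ends. The end-binding (EB) proteins, encoded by the Mapre genes, recognise the freshly added tubulin at a growing plus end and recruit most other plus-end proteins to it. The CLIP proteins and the large dynactin subunit bind EB proteins and tubulin tails through CAP-Gly domains. CLASP proteins favour regrowth and anchor ends at the cell cortex and kinetochores, and Ckap5 speeds the addition of tubulin.

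The values used are log2 expression values, so that a difference of 1 is a factor of 2 in signal, and a change is a difference between group means. Values of different genes come from different probes and are not set against each other. All 10 markers of pluripotent embryonic stem cells lay above the median probe set of the table (7.06), and 1 of 6 mesoderm markers did. So did 3 of 7 trophectoderm, 3 of 7 primitive endoderm, 5 of 8 fibroblast and 5 of 7 neural markers, among them Krt8 and Col1a1, while Cdx2 and Dcn lay below it. The mean over the pluripotency list was 11.60 to 11.65 on the shApela_2 arrays, 11.54 to 11.56 with shApela_1 and 11.61 in shLuc. The trophectoderm list averaged 7.40 to 7.54 with shApela_2, 7.11 to 7.42 with shApela_1 and 7.39 to 7.56 in shLuc, and the mesoderm list 6.58 to 6.81 with shApela_2, 6.57 to 6.63 with shApela_1 and 6.61 to 6.64 in shLuc. The fibroblast list averaged 6.58 to 6.73 with shApela_2, 6.50 to 6.61 with shApela_1 and 6.53 to 6.61 in shLuc. The primitive endoderm list averaged 6.81 to 6.98 with shApela_2, 6.75 to 6.88 with shApela_1 and 6.82 to 6.90 in shLuc, and the neural list 7.12 to 7.19 with shApela_2, 7.13 to 7.32 with shApela_1 and 7.12 to 7.24 in shLuc. Over the 3 comparisons limma called 1 change among the pluripotency markers (adjusted p under 0.05) and 0 in the other marker lists. Of all genes, 0.015% were called with shApela_2 against shLuc, 0.336% with shApela_1 against shLuc and 0.948% between the hairpins. The part of these markers in the results below was not tested. Apela, the target, averaged 9.72 ± 0.14 with shApela_2, 9.70 ± 0.06 with shApela_1 and 11.30 ± 0.10 in shLuc (SD, n = 3 each).

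The third shApela_2 array stood apart from the rest. Its median was 7.12, against 7.03 to 7.07 on the other 8 arrays, and its interquartile range was 3.29, against 3.50 to 3.59. For many named changes with shApela_2 that leaving it out moved, the value without it is given as well. For the genes most like Mapre1 it is not given.

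Mapre1 encodes EB1, the EB protein that marks growing plus ends in most dividing cells. It measured 9.37, 9.32 and 9.11 on the 3 shApela_2 arrays in the order of their replicate numbers. The shApela_1 arrays read 10.03, 10.05 and 10.15, and the shLuc arrays 10.01, 10.06 and 10.16. All 3 shApela_2 arrays lay below all 6 others, and the shApela_1 and shLuc arrays overlapped.

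The group means of Mapre1 were 9.27 ± 0.14 with shApela_2, 10.08 ± 0.06 with shApela_1 and 10.08 ± 0.07 in shLuc (SD, n = 3 each). The difference of shApela_2 from shLuc was -0.81 (SE 0.07), which left 56.9% of the shLuc signal, a 1.76-fold lower level. That of shApela_1 from shLuc was -0.00 (SE 0.07), and that of shApela_2 from shApela_1 was -0.81 (SE 0.07). The shApela_2 and shApela_1 differences from shLuc share the shLuc arrays.

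**Figure D1:**
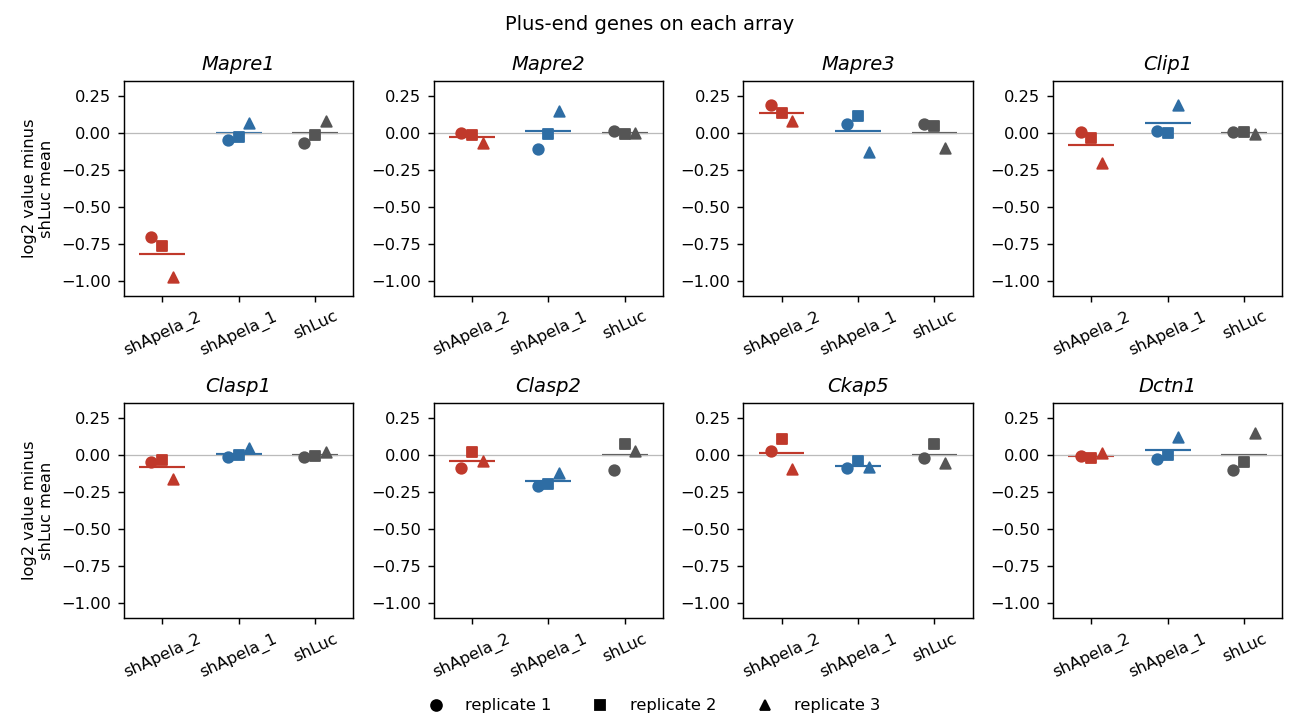
Log2 value on each array minus the gene's shLuc mean (y axis) for the 8 plus-end genes, by group (x axis), with a marker shape for each replicate number and a line at each group mean. Mapre1 with shApela_2 lies 0.70 to 0.97 below its shLuc mean, while its shApela_1 and shLuc arrays and the arrays of the other 7 genes lie closer to 0.

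Among all genes, the Mapre1 difference between shApela_2 and shLuc ranked 3 by size, after those of Apela and Kbtbd8. The same gene ranked 19271 of 19938 in the comparison of shApela_1 with shLuc. Its spread within groups, a residual SD of 0.10, lay beside a median of 0.08 over all genes.

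The 3 shApela_2 arrays did not fall equally. They held 61.3%, 58.9% and 50.9% of the mean shLuc signal of Mapre1. The lowest was the third array, which stands apart in the whole table. Without it the difference from shLuc was -0.73 (SE 0.05) and that from shApela_1 was -0.73 (SE 0.05).

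Arrays with the same replicate number gave Mapre1 differences between shApela_2 and shLuc of -0.64, -0.75 and -1.06. Between shApela_1 and shLuc the differences were 0.02, -0.01 and -0.01. The third array was the highest of its group for Mapre1 with shApela_1 and in shLuc, and the lowest with shApela_2.

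The other EB genes did not pass the test in any comparison, which was limma's moderated test over all 19938 genes with a threshold of 0.05 on the adjusted p. Mapre2 encodes EB2, a further member of the EB family. It measured 9.61, 9.59 and 9.54 with shApela_2, 9.50, 9.59 and 9.75 with shApela_1, and 9.61, 9.59 and 9.60 in shLuc. The groups overlapped, and the shApela_1 arrays alone spanned the whole range of 0.26 seen over the 9 arrays. The difference between shApela_2 and shLuc was -0.03 (95% interval -0.16 to 0.11, limma adjusted p = 0.89), or -0.01 without the third shApela_2 array, and that between shApela_1 and shLuc was 0.01 (-0.13 to 0.15, adjusted p = 1).

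Mapre3 encodes EB3, an EB protein enriched in neurons and muscle that can pair with EB1. It measured 7.60, 7.55 and 7.50 with shApela_2, 7.47, 7.53 and 7.29 with shApela_1, and 7.47, 7.46 and 7.31 in shLuc. All 3 shApela_2 arrays lay above all shLuc arrays, but not above all shApela_1 arrays, and the third array was the lowest of each group. The difference between shApela_2 and shLuc was 0.14 (95% interval -0.03 to 0.30, limma adjusted p = 0.68), and it was 0.16 (adjusted p = 0.929) without the third shApela_2 array. Against shApela_1 the shApela_2 difference was 0.12 (adjusted p = 0.486), and shApela_1 differed from shLuc by 0.01 (adjusted p = 1).

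Clip1 encodes a CAP-Gly protein that follows growing ends and promotes their rescue after shrinkage. Its probe set was the 1 of the 8 with a mean under the median probe set. It measured 6.83, 6.79 and 6.62 with shApela_2, 6.84, 6.83 and 7.01 with shApela_1, and 6.83, 6.83 and 6.81 in shLuc. The first and second arrays of all groups were close, and the third arrays of both hairpin groups departed in opposite directions. The difference between shApela_2 and shApela_1 was -0.15 (95% interval -0.30 to 0.01, limma adjusted p = 0.41), and -0.08 (adjusted p = 0.639) without the third shApela_2 array. Against shLuc the differences were -0.08 with shApela_2 (adjusted p = 0.711), or -0.02 without that array, and 0.07 with shApela_1 (adjusted p = 1), or 0.01 without the third shApela_1 array.

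Clasp1 encodes a CLASP protein that stabilises microtubules at kinetochores and the cortex. It measured 9.86, 9.87 and 9.74 with shApela_2, 9.89, 9.91 and 9.96 with shApela_1, and 9.90, 9.90 and 9.93 in shLuc. All 3 shApela_2 arrays lay below the other 6, and the third was the lowest. The difference between shApela_2 and shLuc was -0.08 (95% interval -0.18 to 0.02, limma adjusted p = 0.68), and -0.04 (adjusted p = 0.929) without the third shApela_2 array. Against shApela_1 the shApela_2 difference was -0.09 (adjusted p = 0.427), or -0.05 without that array.

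Clasp2, the paralogue of Clasp1, had its lowest mean with shApela_1 and did not pass the test in any comparison. It measured 9.92, 10.03 and 9.97 with shApela_2, 9.80, 9.82 and 9.89 with shApela_1, and 9.91, 10.08 and 10.04 in shLuc. The 3 shApela_1 arrays lay below the other 6, and the shApela_2 and shLuc arrays overlapped. The difference between shApela_1 and shLuc was -0.18 (95% interval -0.30 to -0.05), with an unadjusted p of 0.0109 and a limma adjusted p of 0.364. The difference between shApela_2 and shApela_1 was 0.14 (0.01 to 0.26), with an unadjusted p of 0.0325 and a limma adjusted p of 0.333.

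Ckap5 encodes the microtubule polymerase of plus ends and spindle poles. It measured 10.70, 10.78 and 10.57 with shApela_2, 10.58, 10.63 and 10.59 with shApela_1, and 10.65, 10.75 and 10.62 in shLuc. The groups overlapped in every comparison. The differences from shLuc were 0.01 with shApela_2 (95% interval -0.12 to 0.15, limma adjusted p = 0.946) and -0.07 with shApela_1 (-0.20 to 0.06, adjusted p = 1). The third shApela_2 array was the lowest of all 9, and with it left out the shApela_2 difference from shLuc was 0.07 (adjusted p = 0.929).

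Dctn1 encodes the large dynactin subunit that links the motor dynein to plus ends. It measured 8.88, 8.87 and 8.90 with shApela_2, 8.87, 8.89 and 9.01 with shApela_1, and 8.79, 8.84 and 9.04 in shLuc. The groups overlapped, and the widest spread was that among the shLuc arrays (SD 0.13). The differences from shLuc were -0.00 with shApela_2 (95% interval -0.16 to 0.15, limma adjusted p = 0.987) and 0.03 with shApela_1 (-0.12 to 0.19, adjusted p = 1).

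**Figure D2:**
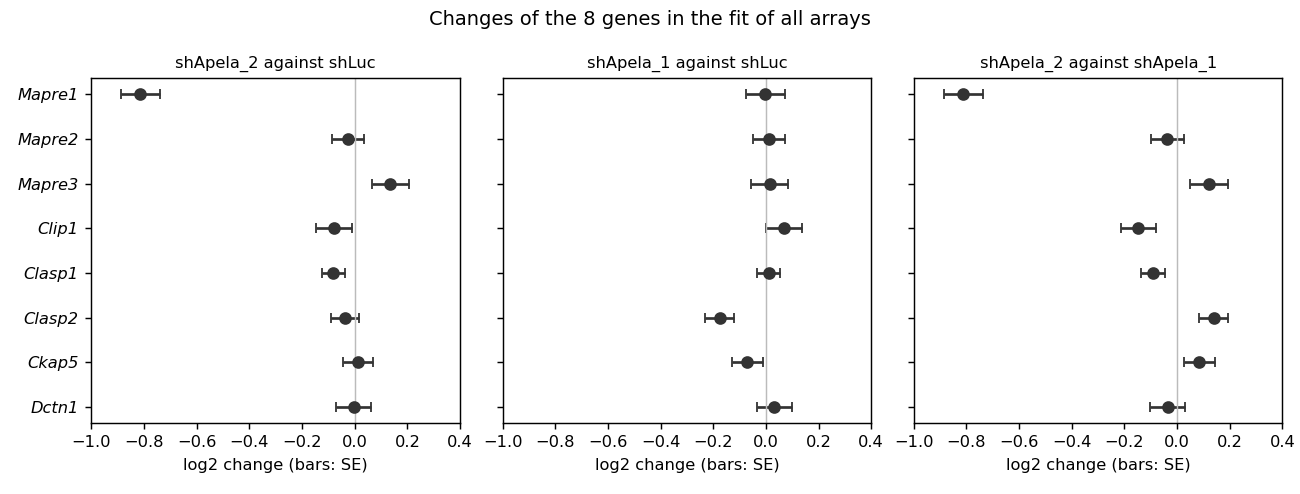
Difference of group means in log2 units (x axis) for the 8 plus-end genes (y axis) in the 3 comparisons, with bars of 1 SE from limma. Mapre1 stands at -0.81 in both comparisons that hold shApela_2, and the other 7 genes lie between -0.18 and 0.14.

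Over these 7 genes, 0 passed limma's test in any of the 3 comparisons. With shApela_2 against shLuc, 3 of all 19938 genes passed (0.015%). Unadjusted p-values under 0.05 were held by 0 of the 7, beside 5.77% of all genes. Groups did not overlap for 2 of the 7, Mapre3 and Clasp1, beside 10.3% of all genes. Their changes ran from -0.08 to 0.14, with a median of -0.03 beside 0.02 over all genes and -0.02 with dim genes left out. The 95% intervals of these changes reached no lower than -0.23 and no higher than 0.30, so a fall of the size of Mapre1's lay outside all 7. Over all genes this comparison gave 1 higher and 6 lower once the arrays were quantile normalized again.

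With shApela_1 against shLuc, 67 of all genes passed (0.336%), 28 higher and 39 lower, and 190 passed with the replicate number as a block. Of the 7, Clasp2 alone had an unadjusted p under 0.05, beside 7.69% of all genes, and it alone had groups that did not overlap, beside 13.7%. Their changes had a median of 0.01, beside 0.01 over all genes, and ran from -0.18 to 0.07. Repeating the quantile normalization gave 29 higher and 70 lower genes.

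Between the hairpins, shApela_2 against shApela_1, 189 of all genes passed (0.948%), 71 higher and 118 lower, and 653 passed with the replicate number as a block. Of the 7, Clasp2 alone had an unadjusted p under 0.05, beside 12.9% of all genes. Groups did not overlap for 2, Clasp1 and Clasp2, beside 17.6%. The median change was -0.04, beside 0.02 over all genes and -0.03 with dim genes left out. Over all genes the split was 134 higher and 120 lower with quantile normalization repeated, and 38 higher and 125 lower with each array centred on its median.

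The 8 genes were also set against their group means array by array. With shApela_2, 2 of the 8 lay below their group mean on the first array, 2 on the second and 7, all but Dctn1, on the third, beside 59.6%, 57.7% and 39.2% of all genes below theirs on these arrays. With shApela_1, 7 lay below on the first array, 6 on the second and 2 on the third, beside 49.4%, 45.2% and 52.3% of all genes. In shLuc 5, 4 and 3 of the 8 lay below, beside 57.2%, 49.7% and 43.9% of all genes. The deviations of a group sum to 0 for each gene, so these counts are not independent. The shares over all genes include dim genes, while 1 of the 8 lay under the median probe set.

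The genes whose values were most like those of Mapre1 were found by the root mean square difference over the 9 arrays, each gene being set to its own shLuc mean first. The closest was Kbtbd8, at 0.08, followed by Gorasp2 (0.11), Alg14 (0.14), Wwc2 (0.21) and Cyb5r4 (0.21). The median over all genes was 0.49. Since these genes were picked for their likeness, their values are a description.

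Kbtbd8, an adaptor of a ubiquitin ligase, measured 7.77, 7.89 and 7.52 with shApela_2, 8.43, 8.46 and 8.64 with shApela_1, and 8.46, 8.52 and 8.75 in shLuc. As for Mapre1, the third array was lowest with shApela_2 and highest with shApela_1 and in shLuc. Gorasp2, a Golgi stacking protein, measured 10.15, 10.18 and 10.12 with shApela_2, 10.80, 10.84 and 10.83 with shApela_1, and 10.78, 10.82 and 10.84 in shLuc. Its 3 shApela_2 arrays spanned 0.06.

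The differences between shApela_2 and shLuc were -0.85 for Kbtbd8, -0.67 for Gorasp2, -0.63 for Alg14, a subunit of the enzyme that adds the second sugar of N-glycan precursors, -0.50 for Wwc2 and -0.47 for Cyb5r4, a cytochrome b5 reductase. Between shApela_1 and shLuc the same genes differed by -0.06, 0.01, -0.09, -0.03 and 0.06. None of the other plus-end genes was close to Mapre1 by this measure. Their values ran from 0.43 for Clasp1 to 0.56 for Mapre3, around the 0.48 that a gene with no change would have.

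**Figure D3:**
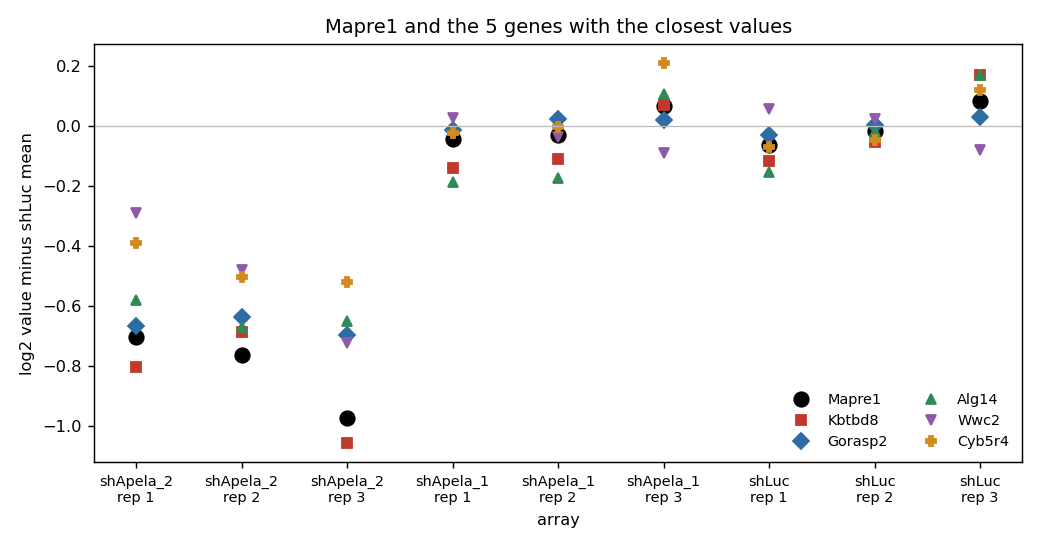
Log2 value minus the gene's shLuc mean (y axis) on each of the 9 arrays (x axis) for Mapre1 and the 5 genes with the smallest root mean square difference from it. All 6 genes are low on the 3 shApela_2 arrays, and all but Alg14 are lowest on the third.

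Beyond the 8 genes, 7 lists of microtubule genes with 131 measured members of 141 named were read from the same fit. They held plus-end partners, dynactin and dynein, tubulins, nucleation and minus ends, destabilisers and severing enzymes, lattice proteins, and tubulin folding and tyrosination. With shApela_2 against shLuc 0 of the 131 passed limma's test, and 7 had an unadjusted p under 0.05 (5.34%, beside 5.77% of all genes). List medians ran from -0.07 to 0.01, beside 0.02 for all genes and -0.02 with dim genes left out. In this comparison 57.5% of all genes were higher.

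Among plus-end partners, 13 of 28 were higher and 15 lower with shApela_2 than in shLuc, and 0 passed. The smallest p-values belonged to Clip3, a CAP-Gly protein (-0.12, limma adjusted p = 0.68), and to Slain1, a partner of EB proteins and Ckap5 (-0.22, adjusted p = 0.68, or -0.12 without the third shApela_2 array). Slain1 measured 8.92, 8.80 and 8.57 with shApela_2, 9.14, 9.19 and 9.06 with shApela_1, and 9.01, 9.05 and 8.90 in shLuc. It was lowest on the third array of every group. Between the hairpins it differed by -0.36, with a limma adjusted p of 0.113, which became 0.0237 with the replicate number as a block. Without the third shApela_2 array that difference was -0.27. Here and below, adjusted p-values with the block are given only for listed genes that passed with it. Whether the replicate numbers pair the arrays is undecided. Comparing shApela_1 with shLuc, the smallest p-values were those of the neuron navigators Nav1 (-0.16, adjusted p = 0.447) and Nav2 (-0.18, adjusted p = 0.519). Between the hairpins that of Slain2, the paralogue of Slain1, came next (0.11, adjusted p = 0.288).

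Of 25 dynactin and dynein genes, 10 were higher and 15 lower with shApela_2 than in shLuc, and 0 passed. The lead members were the dynein light chain gene Dynll2 (-0.22, limma adjusted p = 0.68) and the capping protein gene Capza2 (-0.07, adjusted p = 0.68). For shApela_1 against shLuc they were Dync1li1, a light intermediate chain of dynein (-0.20, adjusted p = 0.262), and the dynactin subunit Dctn4 (0.22, adjusted p = 0.305). Between the hairpins Dync1li1 differed by 0.24, with a limma adjusted p of 0.0896, or 0.0254 with the block, and Dynll2 by -0.30 (adjusted p = 0.144). Dync1li1 was lower on all 3 shApela_1 arrays (10.65, 10.56 and 10.73) than on any shLuc array (10.84, 10.79 and 10.90).

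Tubulins, the subunits themselves, had 5 of 10 higher and 5 lower with shApela_2 than in shLuc, and 0 passed. Tuba1b, Tuba1c and Tubb4b were listed but not among the genes measured. Tubb6 led with -0.12 (limma adjusted p = 0.68), followed by Tubb1 with 0.05 (adjusted p = 0.729), and without the third shApela_2 array they were at -0.05 and 0.01. With shApela_1 against shLuc 8 of 10 were lower, while 54.5% of all genes were higher. The median was -0.05 with 0 past the test. The leads there were Tubb4a (-0.27, limma adjusted p = 0.238) and Tubb6 (-0.13, adjusted p = 0.657). Between the hairpins Tubb4a differed by 0.28 (adjusted p = 0.133) and Tubb2b by 0.13 (adjusted p = 0.278).

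Genes of nucleation and minus ends included the 1 call among the 131. With shApela_2 against shLuc 17 of 20 were lower, with a median of -0.07 and 0 past the test. Over all genes 57.5% were higher, and the median was -0.02 with dim genes left out. The leads were the gamma-tubulin complex subunits Tubgcp3 (-0.16) and Tubgcp4 (-0.13), each with a limma adjusted p of 0.68, and Tubgcp3 was at -0.10 without the third shApela_2 array. With shApela_1 against shLuc 13 of 20 were lower, while 54.5% of all genes were higher. The median was -0.03, led by Haus1 (-0.53) and Haus8 (-0.29, limma adjusted p = 0.148).

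Haus1 encodes a subunit of augmin, which starts new microtubules from the sides of old ones in the spindle. It measured 9.64, 9.62 and 9.52 with shApela_2, 9.02, 8.94 and 9.29 with shApela_1, and 9.58, 9.52 and 9.75 in shLuc. The 3 shApela_1 arrays lay below the other 6. It was higher with shApela_2 than with shApela_1 by 0.51 (SE 0.09, limma adjusted p = 0.0497). The difference between shApela_1 and shLuc was -0.53 (SE 0.09), with a limma adjusted p of 0.0711, or 0.0443 with the replicate number as a block. The call between the hairpins ended with centred array medians (adjusted p = 0.0869), with only the compared arrays in the fit (0.147) and with probe sets averaged per gene (0.05, just above the threshold). It ended without any single array (adjusted p from 0.0616 to 0.209) except the third shApela_1 array (0.0288).

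The 16 genes listed as destabilisers and severing enzymes, most of which shorten or cut microtubules, had 0 calls in the 3 comparisons. Stmn3, a stathmin that binds free tubulin, differed from shLuc by 0.22 with shApela_2 (limma adjusted p = 0.664) and by 0.17 with shApela_1 (adjusted p = 0.353). Other leads were Kif2a (-0.09, adjusted p = 0.68) with shApela_2 and Kif24 (-0.16, adjusted p = 0.727) with shApela_1 against shLuc, and Fign (-0.26, adjusted p = 0.367) and Katnal1 (-0.15, adjusted p = 0.388) between the hairpins. Katnal1 was at -0.10 without the third shApela_2 array.

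The 20 lattice proteins, which bind along the sides of microtubules, also had 0 calls. With shApela_2 against shLuc the leads were Mtcl1 (-0.12) and Map7d2 (-0.19), each with a limma adjusted p of 0.68. Without the third shApela_2 array Map7d2 was at -0.05 and Mtcl1 at -0.13. For shApela_1 against shLuc they were the neuronal protein gene Map2 (0.43, adjusted p = 0.197) and Map7d3, whose product helps recruit kinesin (-0.40, adjusted p = 0.23). Map7d3 averaged 9.28 ± 0.06 with shApela_2, 8.73 ± 0.23 with shApela_1 and 9.13 ± 0.08 in shLuc (SD, n = 3 each). The arrays of the 3 groups did not overlap, with shApela_1 lowest and shApela_2 highest. Between the hairpins it differed by 0.55, with a limma adjusted p of 0.0538, or 0.0242 with the block. Map2 differed by -0.45 (limma adjusted p = 0.115), or -0.33 without the third shApela_2 array.

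The 12 genes listed under tubulin folding and tyrosination had 0 calls as well. Most of them help fold tubulin or act on the terminal tyrosine that CAP-Gly domains bind. Arl2, a small GTPase of tubulin folding, differed from shLuc by 0.07 with shApela_2 (limma adjusted p = 0.68) and by 0.09 with shApela_1 (adjusted p = 0.66). Vash2, which removes the terminal tyrosine, differed by -0.10 between shApela_2 and shLuc (adjusted p = 0.68) and by -0.17 between the hairpins (adjusted p = 0.307), or by -0.03 and -0.11 without the third shApela_2 array. The other leads were Tbcel (0.25, adjusted p = 0.792) with shApela_1 against shLuc and Svbp (-0.08, adjusted p = 0.457) between the hairpins.

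**Figure D4:**
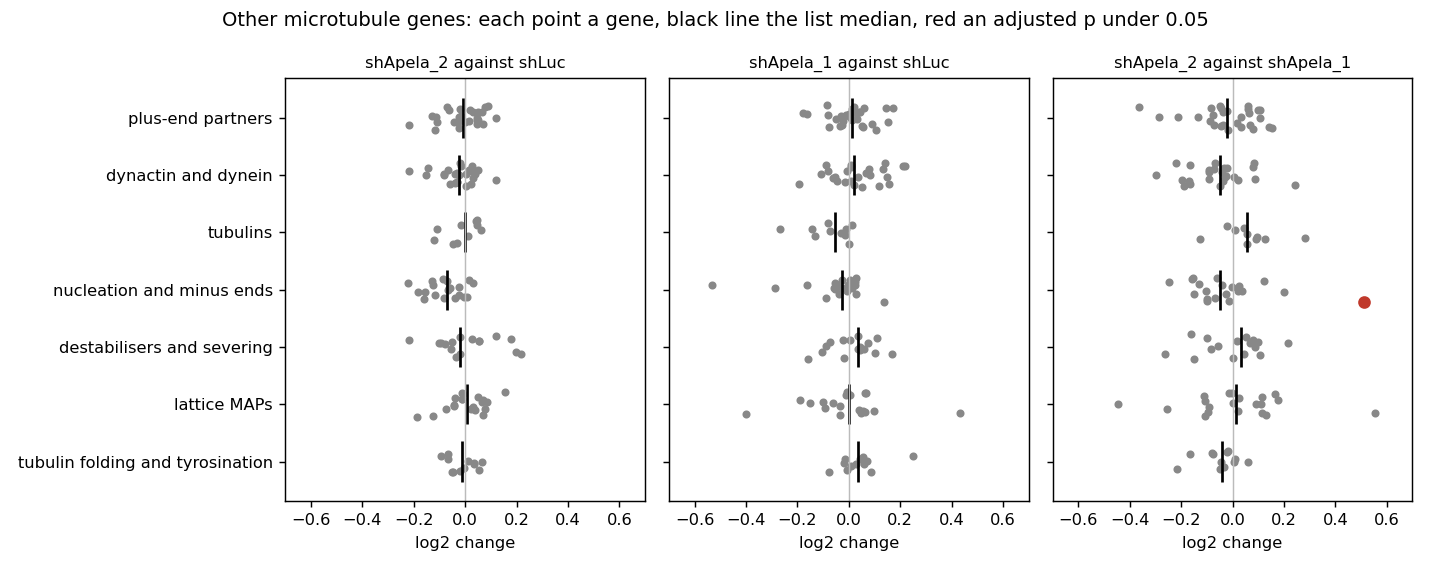
Log2 change (x axis) of each measured gene in the 7 lists of other microtubule genes (y axis) in the 3 comparisons, with a black line at each list median and red for an adjusted p under 0.05. The single red point is Haus1, 0.51 higher with shApela_2 than with shApela_1, and no gene reached the -0.81 of Mapre1.

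In all, 53 of the 131 genes were higher and 78 lower with shApela_2 than in shLuc (40.5% higher, beside 57.5% of all genes). The median change over all genes there was 0.02, or -0.02 with dim genes left out, a filter that 115 of the 131 passed. With shApela_1 against shLuc 70 of the 131 were higher and 61 lower (53.4% higher, beside 54.5% of all genes). There limma called 0, and 15 had an unadjusted p under 0.05 (11.5%, beside 7.69% of all genes). Between the hairpins 57 were higher and 74 lower (43.5% higher, beside 57.8% of all genes). The median over all genes was 0.02 in that comparison, or -0.03 with dim genes left out. Of the 131, 1 was called, beside 0.948% of all genes, and 28 had an unadjusted p under 0.05 (21.4%, beside 12.9% of all genes). With the replicate number as a block 4 were called between the hairpins (Slain1, Map7d3, Dync1li1 and Haus1), beside 653 of all genes. The block called 1 with shApela_1 against shLuc (Haus1), beside 190 of all genes, and 0 with shApela_2 against shLuc, beside 8.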

How the data were processed

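The deposited table holds normalized log2 values of 28853 probe sets on 9 arrays, which the authors made, per the submitters' processing notes, with Partek 6.6 and RMA. No source used here gives the RMA settings or the log base; the range of the values points to base 2. Probe sets were named from GEO's platform annotation (21775 with 1 symbol, 1578 with several, 5500 with none). Groups come from the sample titles. No array repeated another: any pair held equal values for at most 7.88% of probe sets. Precision is limited by the number of arrays.

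The test was limma 3.58.1 under R 4.3.3 (lmFit and eBayes, two-sided), fitted once to all 9 arrays, with Benjamini-Hochberg adjustment over the 19938 genes of a comparison. The fit was tested on simulated data with independent noise of equal spread on every array. That test does not cover an array that stands apart or correlated same-numbered arrays. The 8 genes, lists and rules were chosen with earlier results of these data known. Named genes are the 8, the 5 most like Mapre1, and per list and comparison up to 3 calls, or the 2 smallest p. Deviations of same-numbered arrays from their group means had correlations of 0.44, 0.40 and 0.68 for shApela_1 with shLuc. They were 0.18, 0.21 and 0.21 for both hairpins, and -0.01, 0.67 and 0.47 for shApela_2 with shLuc. Differently numbered arrays were not correlated for comparison, so these values do not decide whether the numbers pair the arrays. Alternatives were an intensity trend, a filter on dim genes, other scalings, array weights, the block, fewer arrays, averaged probe sets and a stricter threshold.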

Additional observations from a re-analysis of the deposited data

How the results depend on the processing

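The Mapre1 difference between shApela_2 and shLuc lay between -0.87 and -0.73 in all 17 alternatives, each within 1 residual SD of -0.81. These include the fits without single arrays. Some alternatives could not move this estimate: the intensity trend, the dim filter, the block, only the compared arrays, averaged probe sets and leaving out a shApela_1 array. Those give no information on its stability. The 7 other plus-end genes had 0 calls in all 354 refitted values; 22 had the other sign and 3 moved by a residual SD or more, which were Clasp1 between the hairpins (-0.04 after a second quantile normalization and -0.04 with array weights) and Clip1 between the hairpins (-0.05 with array weights). Clip1 was left out by the filter on dim genes. Many of the 354 refitted values could not change either, since the same kinds of alternative leave a gene's estimate as it is. Counts over all genes depended far more on the settings. With shApela_1 against shLuc (67) the count was 37 with an intensity trend and robust prior, 31 with centred medians, 688 with array weights, 190 with the replicate number as a block, 44 with only the compared arrays and 7 at an adjusted p under 0.01. With shApela_2 against shLuc (3) it was 7 after a second quantile normalization, 23 with array weights and 8 with the block. Between the hairpins (189) it was 1446 with array weights, 653 with the block, 28 with only the compared arrays and 27 at the stricter threshold. Leaving out single arrays gave 3 to 146, 2 to 6 and 19 to 222 genes in these comparisons; the highest value came without the third shApela_2 array each time. Array weights called 14 of the 131 listed microtubule genes between the hairpins, beside 1446 of all 19938 genes. They called 8 of the 131 with shApela_1 against shLuc, beside 688 of all genes. With shApela_2 against shLuc they called 0 of the 131, beside 23 of all genes. The cause was not tested. The block gave 0 calls among the 7 genes other than Mapre1.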
